A study of Mus musculus with 10 samples.

Results

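Collagen genes were followed across 10 mouse embryonic stem cell (ESC) lines. A gene was counted as a collagen where its Ensembl identifier mapped to a protein-coding symbol made of Col, a type number, the letter a and a chain number. This gave 43 collagens among the 20206 genes of the normalized table, and each had a single row. Col19a1 also has a symbol of this form and was not analysed here. There were 11 fibrillar, 6 basement membrane and 26 other collagens. Of these, 10, 3 and 19 reached a mean value of 10 over the 10 lines and were tested, 32 in all.

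Collagens are secreted trimers of alpha chains wound into a triple helix, and the name gives the type and then the chain. Fibrillar collagens such as types I, II, III and V form the banded fibrils of connective tissue and are abundantly made by fibroblasts. Type IV collagen forms the network of basement membranes, and its commonest trimer holds chains from Col4a1 and Col4a2. In the early mouse embryo, primitive endoderm and its derivatives lay down basement membrane rich in type IV collagen and laminin.

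All lines were wild-type C57BL/6 lines labelled male, each derived from a blastocyst on feeder cells and taken as 1 replicate. The mothers of 5 lines had received a low protein diet (LPD, 9% casein) until embryonic day 3.5. The mothers of the other 5 had received a normal protein diet of equal energy (NPD, 18% casein) over the same days. RNA was extracted after culture in fibroblast-free medium, and each line keeps its number from the labels. The LPD lines were 1, 4, 6, 20 and 40. The NPD lines were 8, 15, 21, 36 and 51.

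Values are normalized expression signals per gene, and the value that 1 read was worth gave the depth. NPD lines held 20445284 to 23166126 read equivalents and LPD lines 5846570 (line 4) to 24120488 (line 20). A read was worth 2.88 units in LPD line 4, 1.58 in LPD line 40, 1.38 in LPD line 6 and 0.729 to 0.845 in the other 7 lines. The labelled cell type was checked with pluripotency genes. Pou5f1 ranged from 18249.6 to 30419.9, Sox2 from 7481 to 10969 and Nanog from 5141 to 11571, so that these genes were high in every line. The Y-linked gene Ddx3y was at 174 in LPD line 4 and at 7.70 in NPD line 15, the latter against its male label, and at 1109.7 or more in the other lines. In bulk RNA, fewer cells of a type and less RNA per cell cannot be told apart.

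The sequences at the starts of Col4a1 and Col4a2, of Col1a2 and of Col3a1 are shown as a description. A link between sequence and variation over the lines was not tested. RefSeq promoter entries (GRCm38.p6) were held for 34 of the 43 collagens. Col4a1 and Col4a2 lie head to head on chromosome 8 and their first exons overlap by 22 bases on opposite strands. The stretch chr8:11312801-11312830 is given on the plus strand, with the 22 bases from the start of Col4a2 (11312805) to the start of Col4a1 (11312826) in capitals.
Col4a1 and Col4a2: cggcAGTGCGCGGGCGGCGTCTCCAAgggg

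Col1a2 and Col3a1 encode chains of the fibrillar collagens I and III. The 250 bases before each RefSeq start are given on the plus strand, which is the strand of both genes, at chr6:4505368-4505617 for Col1a2 and chr1:45311288-45311537 for Col3a1. Capitals mark the motifs searched for on both strands. These were the letters CCAAT of the box of that name. They were also TATAAA, as in a TATA box. The last motif was GGGCGG, as in a GC box.
Col1a2: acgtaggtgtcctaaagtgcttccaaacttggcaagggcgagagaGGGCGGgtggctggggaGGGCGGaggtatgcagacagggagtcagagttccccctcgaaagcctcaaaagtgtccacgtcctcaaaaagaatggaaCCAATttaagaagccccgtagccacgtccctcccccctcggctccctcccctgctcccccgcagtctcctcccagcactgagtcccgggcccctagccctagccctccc
Col3a1: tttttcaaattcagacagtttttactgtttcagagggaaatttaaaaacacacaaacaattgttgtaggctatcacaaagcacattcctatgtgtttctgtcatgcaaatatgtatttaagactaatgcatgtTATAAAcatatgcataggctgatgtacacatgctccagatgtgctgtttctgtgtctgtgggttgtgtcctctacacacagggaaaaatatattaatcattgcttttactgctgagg

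The Col1a2 stretch held CCAAT at 109 to 105 bases before the start and GGGCGG at 205 to 200 and 188 to 183 bases before it. The Col3a1 stretch held TATAAA at 117 to 112 bases before the start and neither of the other 2 motifs. Over all 32851 promoters of the same length, 33.8% held CCAAT, 12.4% TATAAA and 32.7% GGGCGG. Of the 25 tested collagens with a promoter entry, 11 held CCAAT, 4 TATAAA and 18 GGGCGG in at least 1 entry. A match is given as a description of the letters only.

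The basement membrane collagens Col4a1 and Col4a2 and the multiplexin Col18a1 stood at the top. Per kilobase of the longest coding transcript, the mean value over the lines was 747 for Col4a1, 733 for Col18a1 and 479 for Col4a2. Next came Col9a2 at 126 and Col1a1 at 122, and the lowest of the 12 collagens with a mean value of at least 100 was Col5a2 at 21.5 per kilobase. Col4a1, Col4a2 and Col18a1 together took 90.1%, 86.3%, 55.9%, 84.9% and 87.1% of the summed collagen value in LPD lines 1, 4, 6, 20 and 40. In NPD lines 8, 15, 21, 36 and 51 they took 69.0%, 52.3%, 84.9%, 84.3% and 85.2%. The share was thus lowest in NPD line 15, LPD line 6 and NPD line 8.

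**Figure D1:**
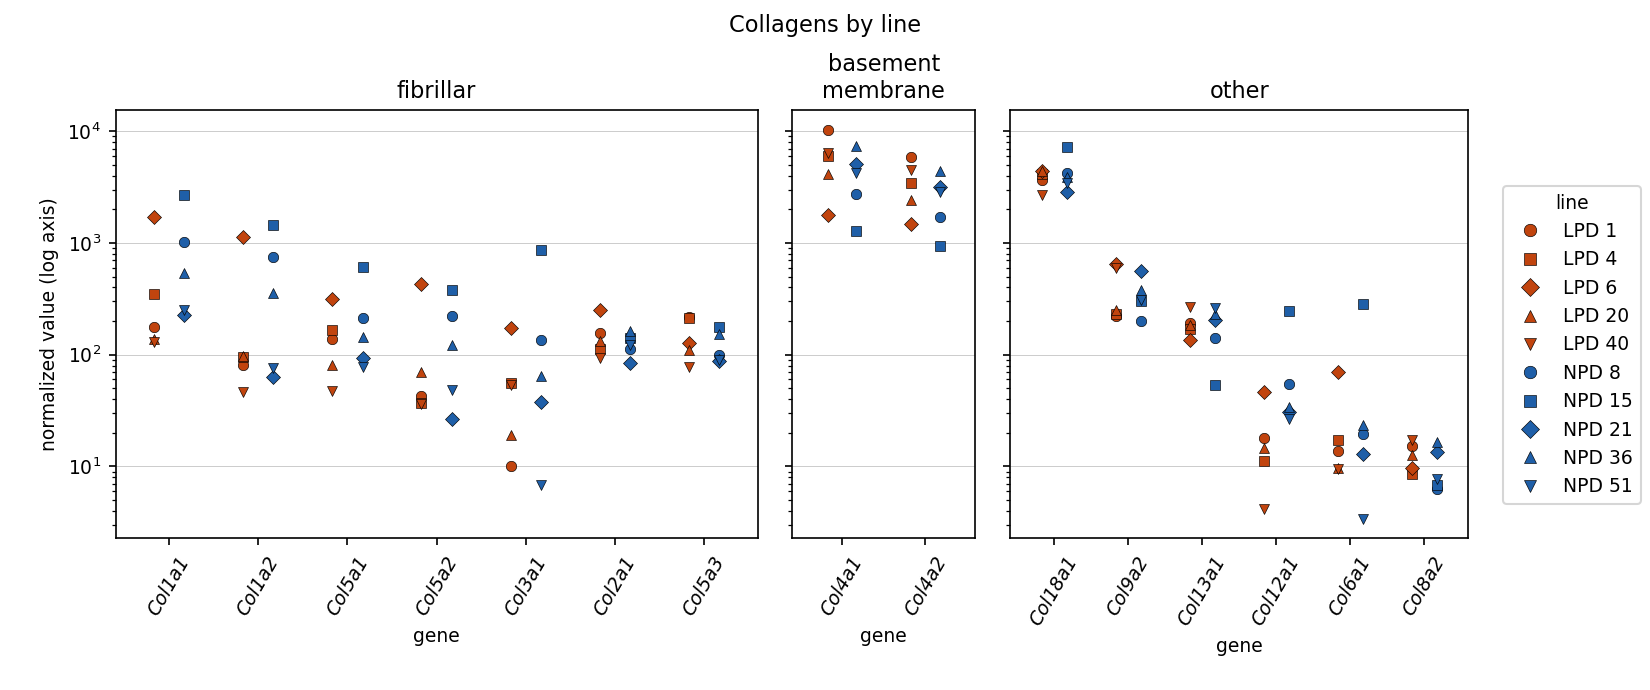
Normalized value (log axis) of 15 collagens in each line (Col15a1, listed at 0 in some lines, is left out), with 1 point for each line, LPD lines in red-brown and NPD lines in blue. The points of Col1a1 span 131 to 2709 and those of Col3a1 6.86 to 859, and LPD and NPD points lie among each other.

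The type I collagen genes varied widely between lines of the same diet. Col1a1 (chromosome 11, 94936224 to 94953042, GRCm38), the alpha 1 chain, was at 178, 348, 1704, 138 and 131 in LPD lines 1, 4, 6, 20 and 40 and at 1016, 2709, 227, 534 and 251.7 in NPD lines 8, 15, 21, 36 and 51. Col1a2 (chromosome 6, 4504814 to 4541544), the alpha 2 chain, was at 81.0, 94.4, 1121, 97.8 and 46.6 in the LPD lines and at 754, 1442, 62.9, 358 and 75.6 in the NPD lines. Both genes were highest in NPD line 15, then LPD line 6, NPD line 8 and NPD line 36, and the diets overlapped. The highest line exceeded the lowest 20.7-fold for Col1a1 and 31.0-fold for Col1a2.

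Col3a1 and the type V chains Col5a1 and Col5a2, which are found in the same fibrils as type I, were high in the same lines. Col3a1 (chromosome 1, 45311538 to 45349706) was at 10.1, 56.2, 174, 19.2 and 53.4 in the LPD lines and at 135, 859, 37.9, 64.6 and 6.86 in the NPD lines, a 125-fold range. Col5a2 (chromosome 1, 45374321 to 45503282), the neighbour of Col3a1, was at 42.5, 36.9, 432, 70.5 and 35.96 in the LPD lines and at 224, 382, 26.8, 123 and 48.2 in the NPD lines. NPD line 15 was the highest line for Col3a1 and LPD line 6 for Col5a2. Col5a1 was at 138, 167, 317, 81.2 and 47.3 in the LPD lines and at 213, 615, 93.6, 144 and 77.1 in the NPD lines. It too was highest in NPD line 15 and next in LPD line 6 and NPD line 8.

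The other 2 fibrillar collagens with a mean of at least 100 were steadier. Col2a1, the main cartilage collagen, was at 157, 112, 253, 131 and 94.0 in the LPD lines and at 113, 142, 84.1, 164 and 123 in the NPD lines, a 3.01-fold range. Col5a3 was at 215, 215, 128, 110.3 and 77.5 in the LPD lines and at 99.0, 175, 88.1, 153 and 89.8 in the NPD lines, a 2.78-fold range. Neither gene had NPD line 15 as its highest line. Of the fibrillar collagens with lower means, Col11a1 had a 2.91-fold and Col27a1 a 5.61-fold range, Col11a2 ran from 3.58 to 65.4, and Col24a1 had a mean of 4.31 and was not tested.

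The type IV pair ran in another order. Col4a1 (chromosome 8, 11198423 to 11312826) was at 10299, 6046, 1789, 4172 and 6389 in the LPD lines and at 2727, 1269, 5117, 7409 and 4193 in the NPD lines. Col4a2 (chromosome 8, 11312805 to 11449287) was at 5936, 3436, 1493, 2441 and 4481 in the LPD lines and at 1721, 941, 3196, 4415 and 2865 in the NPD lines. Both were highest in LPD line 1 and lowest in NPD line 15, then LPD line 6 and NPD line 8, which were the 3 highest lines for Col1a1. The ranges were 8.12-fold and 6.31-fold.

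The remaining chains of type IV were low. Col4a5, an X-linked chain of a trimer with restricted tissue distribution, was at 14.2, 30.8, 73.0, 6.93 and 14.7 in the LPD lines and at 53.3, 51.9, 18.7, 49.7 and 23.9 in the NPD lines. Its 3 highest lines were those of Col1a1 and not those of Col4a1. Col4a3, Col4a4 and Col4a6 had means of 3.98, 1.51 and 1.97 and were not tested, and the values of Col4a6 were identical to those of another gene in every line.

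Of the other collagens, Col18a1, a multiplexin of basement membranes and the source of endostatin, varied least among the highly expressed members. Col18a1 was at 3634, 4171, 4423, 4412 and 2696 in the LPD lines and at 4261, 7264, 2834, 3913 and 3414 in the NPD lines, a 2.69-fold range with NPD line 15 highest. Col9a2, a chain of the fibril-associated type IX collagen, was at 223, 230.2, 642, 250.4 and 595 in the LPD lines and at 201, 303, 558, 376 and 309.9 in the NPD lines. Neither gene separated the diets. The transmembrane collagen Col13a1 was at 194, 169.9, 135, 184 and 269 in the LPD lines and at 141, 53.1, 204, 233 and 264 in the NPD lines. Like the type IV pair, it had NPD line 15, LPD line 6 and NPD line 8 as its 3 lowest lines.

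Among the lower members, Col6a1, a chain of the beaded filament collagen VI, was at 13.7, 17.1, 70.5, 9.70 and 9.43 in the LPD lines and at 19.4, 284, 12.9, 23.6 and 3.40 in the NPD lines. Its range was 83.6-fold, with NPD line 15 highest and NPD line 51 lowest. Col6a2 was at 234 in NPD line 15 and between 16.1 and 50.02 in the other lines. Col8a2, just inside the mean of 10, ranged from 6.24 to 17.4. Col15a1, just outside it with a mean of 5.69, was at 30.3 in LPD line 6 and 15.7 in NPD line 15, at 3.71 or less in the others, and listed at 0 in LPD lines 4 and 40. The 11 collagens under the mean of 10 had means from 0.803 to 5.69, and 9 of them were listed at 0 in at least 1 line.

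Summed by class, the fibrillar collagens came to 1099, 1207, 4296, 762 and 687 in the LPD lines and to 2728, 6479, 721, 1662 and 766 in the NPD lines. The basement membrane collagens came to 16255, 9529, 3362, 6626 and 10886 in the LPD lines and to 4507, 2277, 8336, 11883 and 7085 in the NPD lines. The fibrillar sum spanned 9.43-fold and the basement membrane sum 7.14-fold, with NPD line 15 highest in the former and lowest in the latter. The other collagens spanned 2.33-fold, from 4006 in LPD line 40 to 9342 in NPD line 15, a sum led by Col18a1. NPD line 15, LPD line 6 and NPD line 8 were the 3 highest lines for 5 of 10 fibrillar (Col1a1, Col1a2, Col3a1, Col5a1 and Col5a2), 1 of 3 basement membrane (Col4a5) and 2 of 19 other collagens (Col8a1 and Col12a1). Over all 14354 genes tested this held for 2.80%. These lines were picked after their values had been seen, so the counts are a description.

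**Figure D2:**
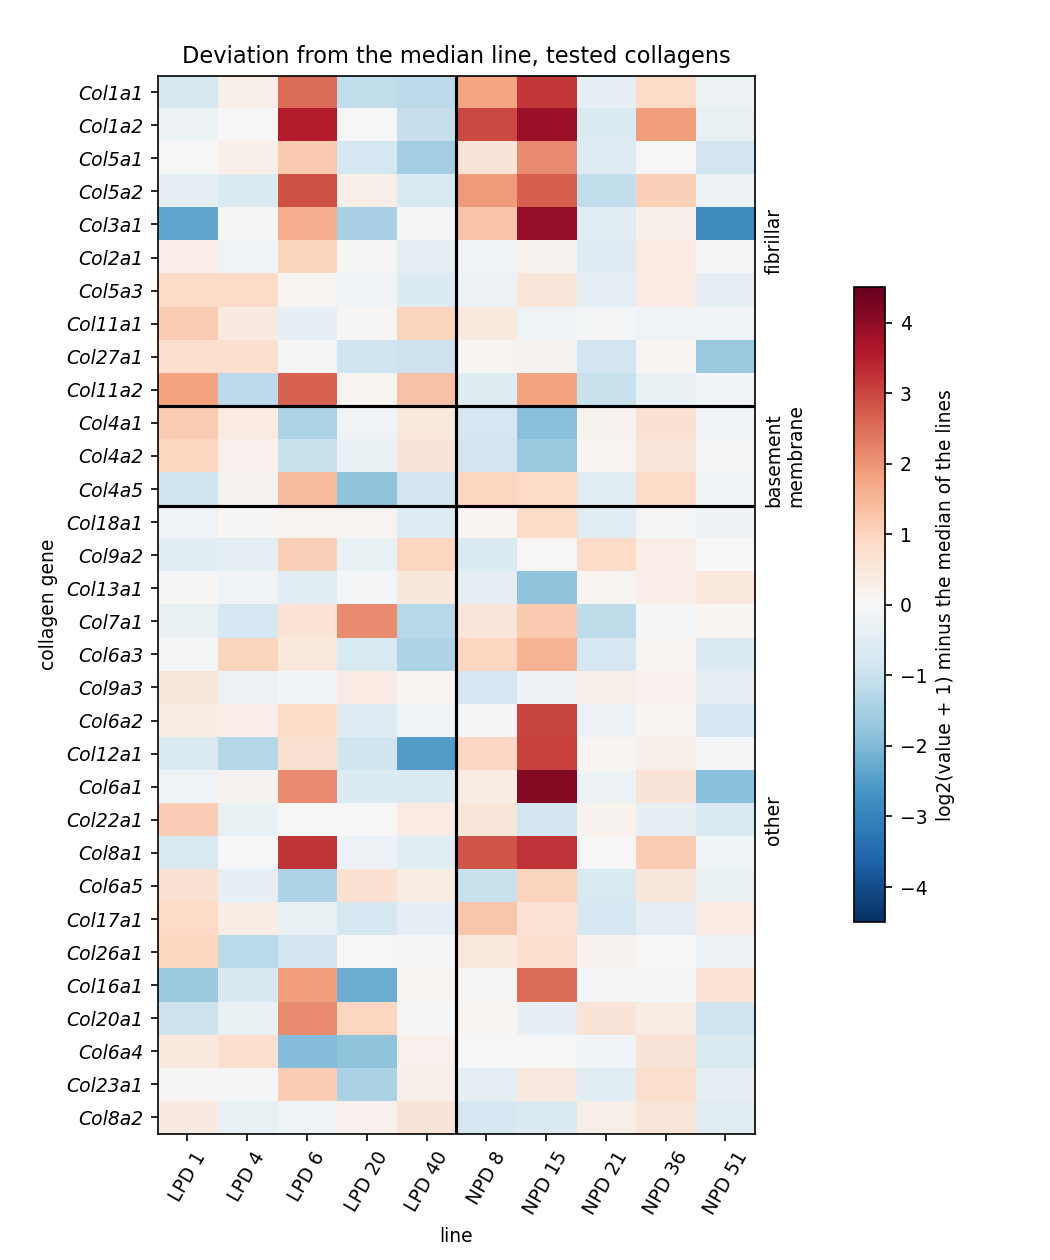
Each line minus the median line, in units of log2(value + 1), for the 32 tested collagens in rows grouped by class and the lines in columns, red above and blue below the median. Most rows with deep red squares have them in NPD line 15 or LPD line 6, and Col4a1 and Col4a2 are blue there.

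The spread between lines of the same diet was larger than for most genes of like level. The SD of log2(value + 1) within diets had a median of 0.95 over the 32 tested collagens and of 0.27 over all 14354 genes. Among genes with a mean of at least 100, where low counts matter less, the medians were 0.89 for 12 collagens and 0.21 for 10455 genes. Of these 12 collagens, 11 lay above the value of 0.44 that 10.0% of the genes exceeded. Among genes with a mean of 10 to 100, the medians were 0.96 for 20 collagens and 0.58 for 3899 genes, and 5 collagens lay above the value that 10.0% of genes exceeded. Col3a1 with an SD of 2.06, Col1a2 with 1.88 and Col6a1 with 1.76 had the largest values among the tested collagens. NPD line 15 was the highest line for 12 of the 32, LPD line 1 for 8 and LPD line 6 for 7.

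The diets were compared with limma on log2(value + 1) over all 14354 genes with a mean of at least 10, and differences are LPD minus NPD on that scale. None of the 32 collagens passed an adjusted p under 0.1 (0 of 32, against 0% of all genes), and the smallest adjusted p among them was 0.860. At an unadjusted p under 0.05, 1 of 32 collagens was called, against 5.02% of all genes, so the share of collagens was no higher than the background. LPD and NPD lines were without overlap for 0 of 32 collagens, against 1.02% of all genes, and 15 of 32 were higher in LPD, against 50.5%. By class, 5 of 10 fibrillar, 2 of 3 basement membrane and 8 of 19 other collagens were higher in LPD. The median difference was -0.13 for fibrillar, 0.47 for basement membrane and -0.11 for other collagens, against 0.00 for all genes.

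The collagen called before adjustment was Col12a1 (chromosome 9, 79598991 to 79718831), a fibril-associated collagen with interrupted triple helices. It was at 17.8, 11.2, 46.4, 14.6 and 4.18 in the LPD lines and at 54.6, 245, 30.6, 33.7 and 26.5 in the NPD lines. All LPD lines except line 6 lay below every NPD line. The LPD mean was 18.8 ± 16.2 and the NPD mean 78.0 ± 93.9 (SD, n = 5 for each). The log2 difference was -1.77 (SE 0.66; limma, unadjusted p = 0.018, adjusted p = 0.860; exact permutation test of the log2 means, two-sided, p = 0.040). With 5 lines against 5, no exact p below 0.00794 is possible. The value in LPD line 40 stood for fewer than 3 reads. Without that line the difference was -1.38 and 0 of 32 collagens were called, against 6.29% of all genes.

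The large differences in means of type I collagen lay within the spread between lines. Col1a1 had an LPD mean of 499.7 ± 679 and an NPD mean of 948 ± 1035 (SD, n = 5 for each), with a log2 difference of -1.09 (SE 0.77; exact permutation test, p = 0.278). Col1a2 differed by -1.11 (SE 0.95; exact permutation p = 0.405) and Col3a1 by -0.85 (SE 1.05; exact permutation p = 0.556). For Col4a1 the LPD mean was 5739 ± 3137 and the NPD mean 4143 ± 2339 (SD, n = 5 for each), with a log2 difference of 0.49 (SE 0.49; exact permutation p = 0.444). Col4a2 differed by 0.47 (SE 0.42; exact permutation p = 0.397) and Col18a1 by -0.11 (SE 0.22; exact permutation p = 0.738).

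LPD line 6 weighed on these comparisons, and it was singled out after its values had been seen. Without it, 7 of 32 collagens were under an unadjusted p of 0.05, against 5.39% of all genes, and 0 passed adjustment. Of these, Col1a1 (-1.73), Col1a2 (-1.88), Col4a5 (-1.25), Col8a1 (-1.79), Col12a1 (-2.18) and Col16a1 (-1.74) were lower in LPD and Col11a1 (0.68) was higher, with limma log2 differences in brackets. LPD line 6 was the highest LPD line for each of the genes lower in LPD and the lowest for Col11a1. Leaving it out thus widens these differences. Without NPD line 15 instead, 1 of 32 was called, Col12a1 (-1.22), against 4.21% of all genes. Without LPD line 4, 2 of 32 were called, Col12a1 and Col11a2 (1.52), against 5.27% of all genes. Leaving out LPD line 4 and NPD line 15 together, the lines with low Ddx3y, left 1 collagen called, Col11a2 with a difference of 1.98, against 4.25% of all genes. For Col11a2 these were the lowest LPD line (3.58) and the highest NPD line (35.8). Leaving them out thus raises its difference, which was 0.98 over all lines. A read was worth 2.88 units in LPD line 4, so its value there stood for very few reads.

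**Figure D3:**
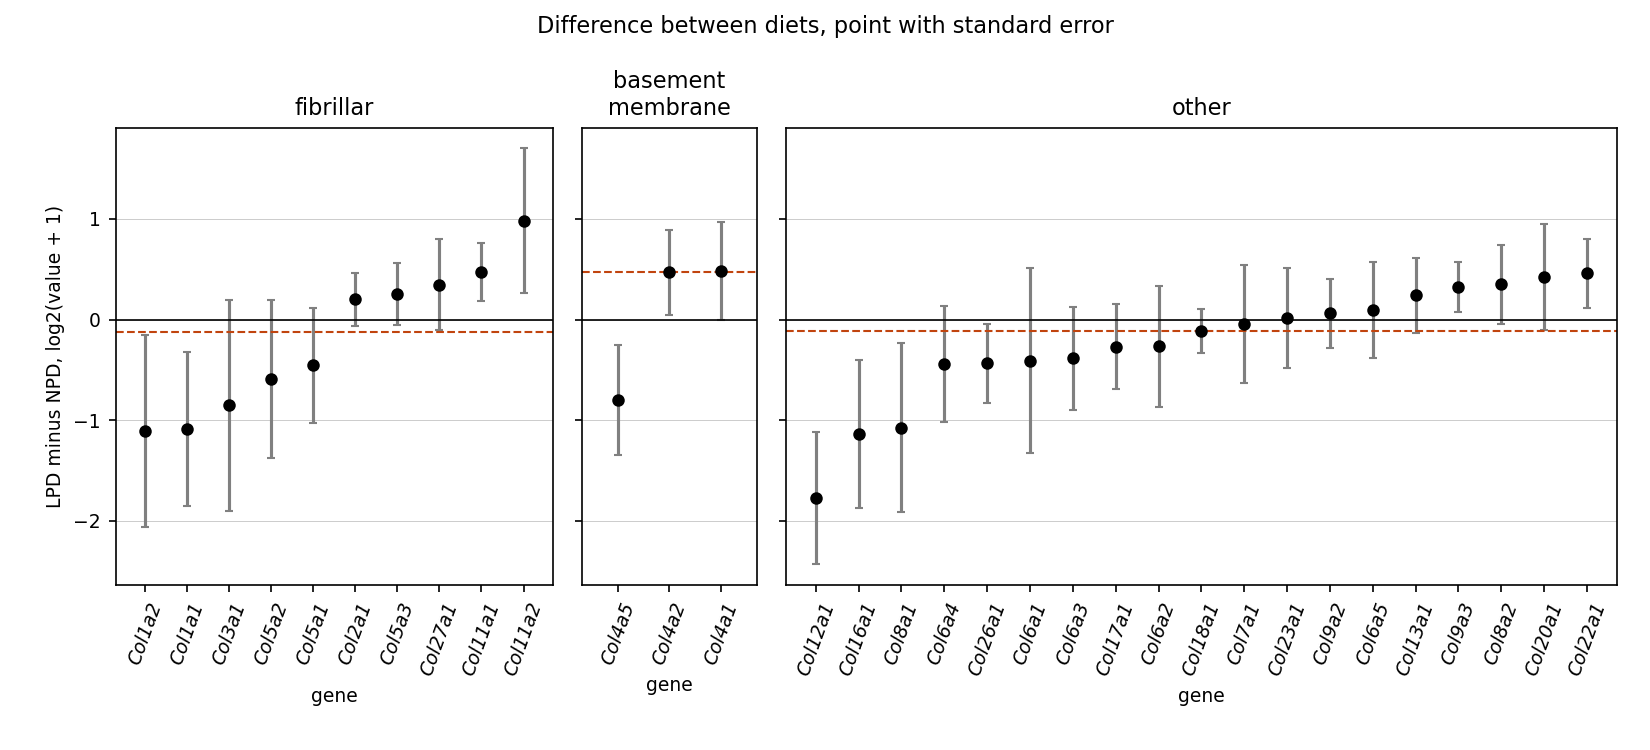
Difference between diets (LPD minus NPD, log2 scale) of the 32 tested collagens by class, as point and standard error from limma, with a dashed line at the median of each class. The points run from -1.77 for Col12a1 to 0.98 for Col11a2, and the class medians lie at -0.13, 0.47 and -0.11.

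Chains of the same trimer were compared over the 10 lines, with 12 fixed pairs of genes or gene lists in the family. Each permutation p came from 100000 resamples, the smallest p possible was 1e-05, and adjustment was over the 12. These points share lines and normalization. Collagens and gene lists were chosen with earlier results of these data known, so the p-values are a description and no test of a prior pairing. Col4a1 and Col4a2 had r = 0.99 (permutation p = 1e-05, adjusted p = 1.2e-04) and rho = 0.99 (adjusted p = 1.2e-04), and r = 0.98 without LPD line 6 and NPD line 15, the 2 lines farthest from the median of Col4a1. Col1a1 and Col1a2 had r = 0.96 (permutation p = 1e-04, adjusted p = 4e-04) and rho = 0.84 (permutation p = 0.0038, adjusted p = 0.0090), and r = 0.91 without the same 2 lines. Within diets r was 0.99 and 0.96. Both pairs therefore kept a close relation without the most extreme lines.

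The ratio of chains per kilobase moved less than the levels. Col4a1 to Col4a2 ranged from 1.17 in LPD line 6 to 1.72 in LPD line 4, with a median of 1.55. Col1a1 to Col1a2 ranged from 1.21 in NPD line 8 to 3.33 in LPD line 4, with a median of 1.84, and was above 3 in NPD lines 21 and 51 as well. The ratio of Col4a1 to Col1a1 spanned 0.42 in NPD line 15 to 51.9 in LPD line 1. Because lengths are those of the longest coding transcript, the ratios depend on which transcripts the lines used.

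Neighbouring and co-assembled genes also varied together. Col6a1 and Col6a2, tandem genes on chromosome 10, had r = 0.94 (permutation p = 2e-04, adjusted p = 4.8e-04) and rho = 0.85 (adjusted p = 0.0086), and r = 0.77 without LPD line 6 and NPD line 15. Col3a1 and Col1a1 had r = 0.85 (permutation p = 0.0011, adjusted p = 0.0018) and rho = 0.79 (adjusted p = 0.017), and r = 0.83 without NPD lines 15 and 51. Col3a1 and its neighbour Col5a2 had r = 0.76 (permutation p = 0.0093, adjusted p = 0.011) and rho = 0.65 (adjusted p = 0.065). For that pair r was 0.70 (permutation p = 0.054) without NPD lines 15 and 51. The call was lost there, but fewer lines over a narrower range also raise p.

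**Figure D4:**
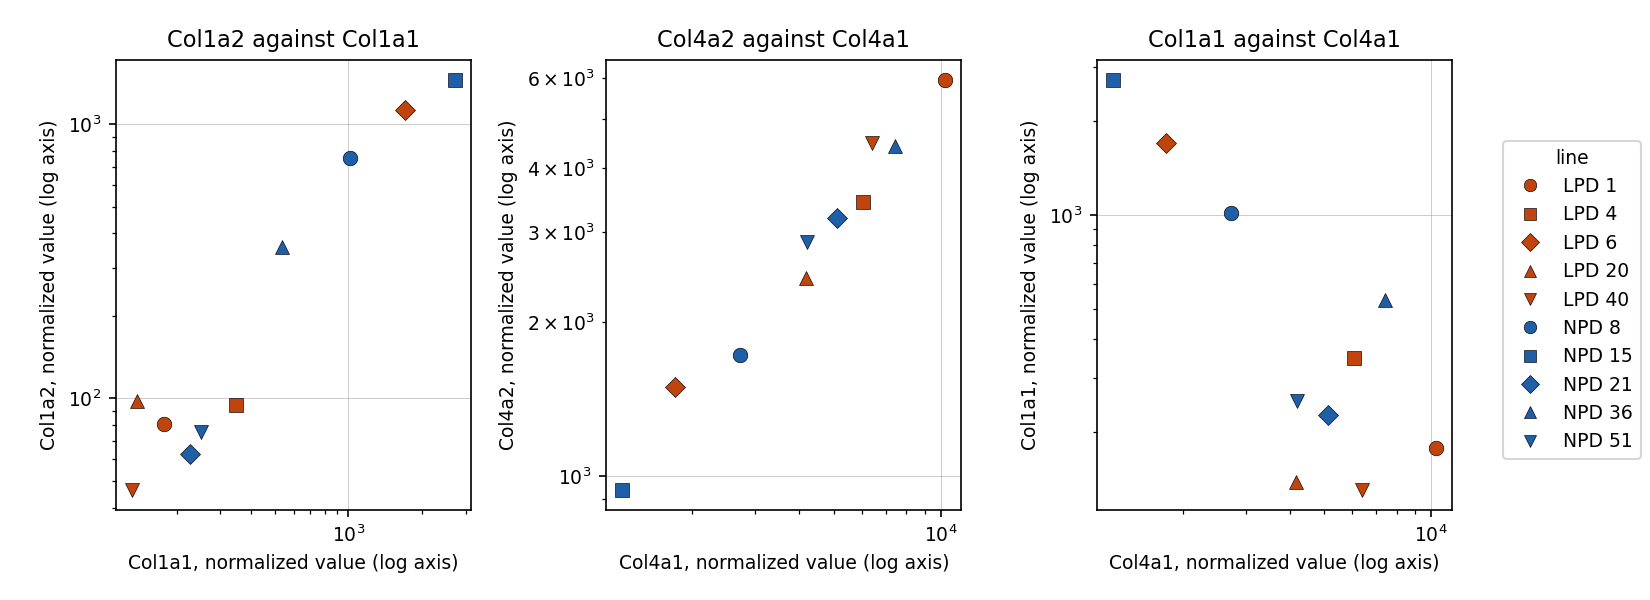
Normalized values on log axes for Col1a2 against Col1a1, Col4a2 against Col4a1 and Col1a1 against Col4a1, with 1 point for each line, LPD in red-brown and NPD in blue. The first 2 panels rise together (r = 0.96 and 0.99) and the last falls (r = -0.82), with NPD line 15 at 1 end of each panel.

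Col1a1 and Col4a1 had a negative r over the lines, which was weaker once the 2 farthest lines were left out. NPD line 15, LPD line 6 and NPD line 8 were highest for Col1a1 and lowest for Col4a1. The other lines did not run in reverse order, and NPD line 36 was high for both (534 and 7409). Col1a1 and Col4a1 had r = -0.82 (permutation p = 0.0044, adjusted p = 0.0066) and rho = -0.61 (permutation p = 0.066, adjusted p = 0.072). Without LPD line 6 and NPD line 15, r was -0.43 (permutation p = 0.30), so the relation was weaker without those 2 lines and its call was lost. Col18a1 and Col4a1 had r = -0.71 (permutation p = 0.021, adjusted p = 0.023) and rho = -0.72 (adjusted p = 0.035), and r = -0.39 (permutation p = 0.33) without LPD line 40 and NPD line 15. This relation too was weaker without its 2 extreme lines. Fewer lines over a narrower range also lower r and raise p, so how far either relation depends on those lines cannot be told.

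Some markers of cells that ESC cultures can hold moved with both patterns. The fibroblast list held 20 genes without collagens, of which 16 were tested. Between diets 0 of the 16 were under an unadjusted p of 0.05, against 5.02% of all genes. The summed value of the list ranged from 21091 to 34141 in LPD and from 22697 to 27686 in NPD lines. It was led by Fn1 (11521 to 18433), which was high in every line. Thy1, a fibroblast surface marker, was at 90.3, 115, 135, 43.7 and 60.4 in the LPD lines and at 80.3, 216, 39.1, 74.4 and 65.9 in the NPD lines. Thy1 was thus highest in NPD line 15 and LPD line 6. Twist1 did not follow, with its highest value of 485 in LPD line 20, and Pdgfra, which primitive endoderm also makes, was lowest at 98.0 in LPD line 6.

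Some members of the list, chosen here after their values had been seen, stood out in 1 or more of the lines rich in type I collagen. Prrx1, a mesenchymal transcription factor, was at 127 in NPD line 15, 37.5 in LPD line 6, 25.2 in NPD line 8 and 6.77 or less in the others. S100a4 was at 193, 102 and 15.7 in these lines and at 5.98 or less in the others. The stromal matrix gene Lum was at 111 in NPD line 15 and at 1.39 or less in every other line. NPD line 15, LPD line 6 and NPD line 8 were the 3 highest for 5 of 16 tested fibroblast markers and, as above, for 2.80% of all genes. Other members did not follow. Tagln was highest at 5814 in LPD line 6 but at 792 and 862 in NPD lines 15 and 8, near its lowest value of 732. Vim was highest at 5097 in LPD line 20.

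Col1a1 and the mean log2 value of the 16 fibroblast markers had r = 0.90 (permutation p = 6.8e-04, adjusted p = 0.0014) and rho = 0.75 (adjusted p = 0.030). This list too was chosen with earlier results known, so the p-values here are descriptive. Without LPD line 6 and NPD line 15, r was 0.65 (permutation p = 0.079). For Col3a1 the values were r = 0.78 (adjusted p = 0.0089), rho = 0.64 (adjusted p = 0.066) and r = 0.67 (permutation p = 0.070) without NPD lines 15 and 51. Both calls were lost without these lines, while r kept its sign, and fewer lines over a narrower range also raise p. Whether fibroblasts carried over from the feeder layers had a part in the collagen values was not tested.

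Most endoderm markers moved with the type IV pair. Of 18 listed genes without collagens 16 were tested. In LPD 14 of these were higher and 2 lower, against 50.5% of all genes higher, with a median difference of 0.32. Most of these markers moved together over the lines, so this count is a description. Between diets 0 of the 16 were under an unadjusted p of 0.05, against 5.02% of all genes. Summed values of the list were 34814 to 50133 in LPD and 33505 to 36490.0 in NPD lines, led by Apoe. Gata4, a transcription factor of primitive endoderm, was at 979, 640.2, 159, 411 and 941 in the LPD lines and at 260.1, 67.6, 527, 1079 and 597 in the NPD lines. Gata6 was lowest at 39.4 in NPD line 15 and 109 in LPD line 6, and Sox17 at 11.6 and 62.3 in the same lines. These 3 were low where Col4a1 was low, but not every marker was. Thbd ran the other way, at 239.5 in LPD line 6, 110.0 in NPD line 15 and 38.2 or less in the others. Apoe, at 34955 in LPD line 6 and 32992 in LPD line 1, did not follow, and Lrp2 was no lower in LPD line 6 (949) than in NPD line 21 (938). Afp and Ttr, markers of later visceral endoderm, were at 8.71 or less in every line.

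Col4a1 and the mean log2 value of the 16 endoderm markers had r = 0.97 (permutation p = 3e-05, adjusted p = 1.8e-04) and rho = 0.94 (adjusted p = 8e-04). As the list was chosen with earlier results of these data known, these p-values are descriptive. The relation held without LPD line 6 and NPD line 15, with r = 0.92 (permutation p = 0.0027), and within diets, with r = 0.97. NPD line 15, LPD line 6 and NPD line 8 were the 3 lowest lines for 9 of the 16 endoderm markers, against 2.95% of all genes. The part of endoderm-like cells in the type IV values was not tested.

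As a sum, trophectoderm markers were also higher in the lines rich in type I collagen. Their summed value was 4681, 4918, 10821, 3166 and 3708 in the LPD lines and 6440.5, 6635, 3961, 3911 and 3161 in the NPD lines, so that LPD line 6, NPD line 15 and NPD line 8 were the 3 highest. Of 10 listed genes 8 were tested, and these lines were the 3 highest for 3 of the 8, against 2.80% of all genes. The 3 markers were the keratins Krt7, Krt8 and Krt18, chosen here after their values had been seen. Krt7 was at 638, 289 and 223 in the 3 lines and at 84.2 or less in the others. The defining markers did not share this order, with Cdx2 at 97.9 in LPD line 20 and at 38.3 or less elsewhere and Elf5 from 0.726 to 6.18. Between diets 1 of the 8, Ascl2, was under an unadjusted p of 0.05, against 5.02% of all genes. Its log2 difference was -0.71 (limma, adjusted p = 0.987). The part of trophectoderm-like cells in the collagen values was not tested. Of the 12 pluripotency genes, 0 were under 0.05 between diets, against 5.02% of all genes.

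**Figure D5:**
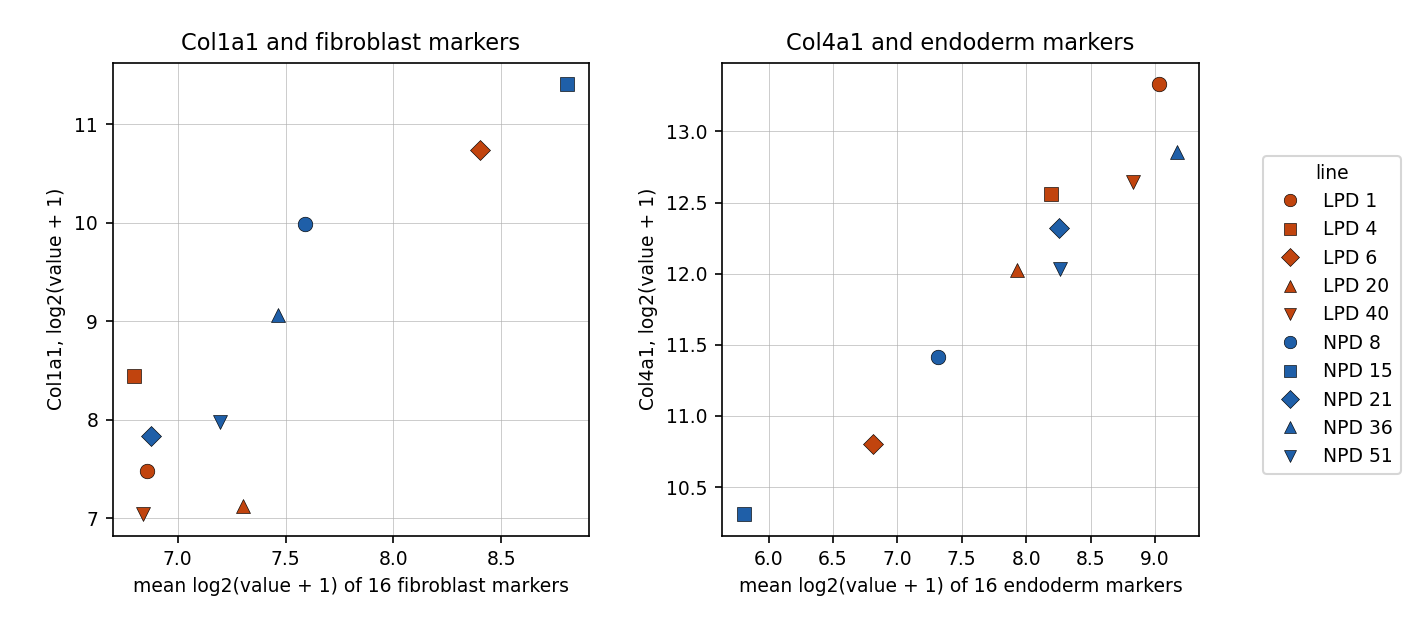
Left, log2(value + 1) of Col1a1 against the mean log2(value + 1) of 16 fibroblast markers. Right, Col4a1 against the mean of 16 endoderm markers, with 1 point for each line, LPD in red-brown and NPD in blue. Points rise from left to right in both panels (r = 0.90 and 0.97), with NPD line 15 at the top right of the left panel and at the bottom left of the right panel.

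Enzymes and chaperones that make collagen were listed as 34 genes, of which 31 were tested. Between diets 0 of 31 were under an unadjusted p of 0.05, against 5.02% of all genes. Of the 31, 23 were higher in LPD, against 50.5% of all genes, with a median difference of 0.09. Serpinh1, the collagen chaperone HSP47, was at 6875, 4665, 3649.6, 3884 and 5733 in the LPD lines and at 3915, 2329, 3955, 6129.8 and 3653 in the NPD lines. Serpinh1 was highest in LPD line 1 and lowest in NPD line 15, as Col4a1 was. Col4a1 and Serpinh1 had r = 0.91 (permutation p = 1.9e-04, adjusted p = 4.8e-04) and rho = 0.95 (adjusted p = 5.4e-04), and r = 0.88 without LPD line 6 and NPD line 15. Col1a1 and Serpinh1 had r = -0.62 (permutation p = 0.055, adjusted p = 0.055) and rho = -0.54 (adjusted p = 0.11), which did not pass the test.

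The prolyl hydroxylase subunit P4ha1 was between 397 in NPD line 8 and 1736 in LPD line 1, and the lysyl hydroxylase Plod2 between 929 in LPD line 6 and 2227 in LPD line 1. Their log2 differences between diets were 0.14 (SE 0.40) and 0.12 (SE 0.23). Of 10 collagen receptor genes 7 were tested and 1, the integrin subunit Itga10, was under an unadjusted p of 0.05, against 5.02% of all genes. Itga10 was at 23.9, 34.1, 47.0, 33.0 and 51.4 in the LPD lines and at 55.5, 56.9, 48.9, 67.8 and 57.3 in the NPD lines. Only LPD line 40 overlapped with the NPD lines, and the log2 difference was -0.63 (SE 0.25; limma, p = 0.026, adjusted p = 0.952; exact permutation p = 0.016). The unadjusted call of Itga10 was lost without LPD line 1, NPD line 36, or NPD line 15 and LPD line 4 together, with log2 differences of -0.48, -0.56 and -0.60. All 12 basement membrane partners, laminins, nidogens and other proteins of that sheet, were tested and 0 were under 0.05, against 5.02% of all genes. Of the 12, 10 were higher in LPD, against 50.5% of all genes, with a median difference of 0.08.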

How the data were processed

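RNA of 10 ESC lines was sequenced, 5 for each diet. Per the paper's methods, the authors trimmed adaptors, quantified GRCm38 transcripts with Salmon and tested transcripts with Sleuth. They deposited 1 normalized signal per gene and line, and the method of normalization is known from the table's name only. How transcripts were summed to genes is not given in the sources used here, nor is library strand. Gene positions and lengths came from GENCODE M21, which held 19891 of the 20206 genes. Low values were whole multiples (tolerance 0.15) of the value of 1 read for at least 92.8% of values in single-transcript genes but for 67.8% to 74.3% over all genes, so no count model was used.

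The collagens, classes and gene lists were chosen with earlier results of these data known. Values were transformed as log2(value + 1), which understates the change of low genes, and limma 3.58.1 (R 4.3.3) was run on genes with a mean of at least 10 (mean-variance trend, Benjamini-Hochberg over all genes tested) and checked on simulated data. Single collagens were also compared by exact permutation over the 252 assignments of 5 and 5 lines. Values per line are given for collagens with a mean of at least 100, those under an unadjusted p of 0.05 or without overlap, the 3 with the largest SD within diets and those beside the mean of 10, and for a few fixed partner and marker genes. Other genes were named after their values were seen. Alternatives were pseudocounts of 0.1, 0.5 and 10, no filter or a mean of at least 100, equal totals, quantile normalization, limma without a trend, robust or with array weights, thinning to the shallowest line, Mann-Whitney tests and lines left out. Other steps used Python 3.11.15.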

Additional observations from a re-analysis of the deposited data

Results flagged for a closer look

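Among the 5 LPD lines, line 6 lay apart from the other 4 for 3 of the 16 named collagens. Its gap to the nearest line took more than 0.71 of the range of the group, both taken on log2(value + 1). Col1a2 was at 1121 in LPD line 6 and at 46.6 to 97.8 in the other LPD lines. Col5a2 was at 432, against 35.96 to 70.5, and Col6a1 at 70.5, against 9.43 to 17.1. In all, 32 groups of 5 lines were examined, and chance flags about 1 in 20 where genes are not picked by their spread. Here Col3a1, Col1a2 and Col6a1 were among those named for the largest SD within diets, so that rate does not hold for them. All 3 flags fall on LPD line 6 and are not independent events, so the count is a description. No NPD line lay apart by this measure on the log2 scale. On the values themselves NPD line 15 did stand off, as for Col6a1, at 284 against 3.40 to 23.6 in the other NPD lines.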

How the results depend on the processing

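The number of collagens at an adjusted p under 0.1 stayed at 0 under all 22 alternatives. The number at an unadjusted p under 0.05, 1 as reported, was 0 among genes with a mean of at least 100, which leaves out Col12a1, and 0 to 7 with each line left out. For the partner genes, the number was 1 as reported, 0 with a mean of at least 100, 2 with array weights, 2 without NPD line 15 and LPD line 4, and 1 to 7 with each line left out. Over all genes the shares called in these settings were 5.02%, 5.48%, 5.83%, 4.25% and 3.82% to 6.29%. The 7 partner genes were called without LPD line 6, where 5.39% of all genes were. The partner genes counted did not always include Itga10. Its p was 0.066 without LPD line 1, 0.062 without NPD line 36 and 0.066 without NPD line 15 and LPD line 4 (limma, unadjusted). Itga10 was not tested with a mean of at least 100. The class medians moved by less than the spread between lines but not always with 1 sign. With each line left out they ran from -0.40 to 0.14 for fibrillar, 0.12 to 0.74 for basement membrane and -0.36 to 0.09 for other collagens. Rescaling to the same total moved the share of all called genes that were higher in LPD from 56.6% to 40.2%. Col12a1 had p = 0.056 by the exact Mann-Whitney test and a difference of -1.13 without NPD line 15 and LPD line 4. Without the 2 farthest lines, 5 correlations lost their call, at 0.70 for Col3a1 with Col5a2, -0.43 for Col1a1 with Col4a1, -0.39 for Col18a1 with Col4a1, 0.65 for Col1a1 with the fibroblast markers and 0.67 for Col3a1 with them. With each line left out, r ran from 0.66 to 0.79 for Col3a1 with Col5a2, from -0.89 to -0.70 for Col1a1 with Col4a1, from -0.75 to -0.43 for Col18a1 with Col4a1, from 0.57 to 0.84 for Col3a1 with the fibroblast markers and from -0.71 to -0.35 for Col1a1 with Serpinh1. In these ranges the calls of the first 4 were lost without NPD line 15, and the last passed without LPD line 20, NPD line 36 or NPD line 51. The cause was not tested. No paired analysis was made because, per the paper, each line had a different mother and each mother received 1 diet. LPD lines 4, 6 and 40 were shallower, which limits values of a few reads.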
